A study of Drosophila melanogaster with 2 samples.

Results

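The long non-coding RNA (lncRNA) genes described here were the 109 of 1945 genes with a symbol beginning lncRNA: that had a Pumilio (Pum) ChIP-seq summit within 500 bp of an annotated transcript start. They were chosen by the position and the presence of summits in the authors' reproducible peak list, which holds 3970 peaks on the dm6 build, so having a peak is the selection and not a finding. Of the 109 genes, 76 had no protein-coding start within 500 bp of their strongest such summit and are called lone. The other 33 had one and are called shared, because the peak cannot be given to one of the genes. The 109 genes took in 118 summits, 81 of them without and 37 of them with a protein-coding start. The 2 libraries, replicates 2 and 3, were chromatin immunoprecipitations with an antibody to GFP from whole embryos of 0 to 24 h and mixed sex, both of the Pum-MiMIC-GFP line. In that line an eGFP exon in an intron of pum makes a Pum-GFP fusion gene. Both libraries formed 1 group, control samples were not analysed here, and every tissue and embryonic age was mixed, so no conditions were compared and no test was made. Chromatin had been sheared to 200 to 800 bp, so positions are read no finer than the fragments allow.

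Pum is an RNA-binding protein of the PUF family, known for repressing the translation of mRNAs that carry its recognition element, written in DNA letters TGTANATA, usually in their 3′ untranslated region. ChIP-seq instead reports DNA recovered with the protein, directly or through other molecules. An lncRNA is a transcript with no annotated protein; many fly lncRNAs are known only as annotated models with a CR number, whereas others act in dosage compensation, in development or as precursors of the small piRNAs that silence transposons.

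The DNA around the summits that carry the results is shown first. Each run is the forward strand of dm6, 5′ to 3′, within 100 bp on either side of the summit, taken from the RefSeq Release 6 plus ISO1 MT assembly, which has the same sequence. Capitals mark matches on either strand to the Pum element TGTANATA, the DNA replication-related element DRE (TATCGATA), Ohler motif 1 (GGTCACACT) or the GAGA motif (GAGAG). The first 2 runs are the strongest lone summits and hold none of the 4 motifs. The next 2 are the strongest lone summits with a Pum element. The flam run is the one at the best studied of the lone genes, and the last 2 are strong shared summits, at elav and at brwl.
lncRNA:CR44619, chrX:12752257-12752457: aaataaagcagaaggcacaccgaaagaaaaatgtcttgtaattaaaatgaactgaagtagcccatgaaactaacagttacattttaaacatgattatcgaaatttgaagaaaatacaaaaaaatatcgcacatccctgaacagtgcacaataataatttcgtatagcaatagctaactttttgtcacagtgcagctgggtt
lncRNA:CR31044, chr3R:29214350-29214550: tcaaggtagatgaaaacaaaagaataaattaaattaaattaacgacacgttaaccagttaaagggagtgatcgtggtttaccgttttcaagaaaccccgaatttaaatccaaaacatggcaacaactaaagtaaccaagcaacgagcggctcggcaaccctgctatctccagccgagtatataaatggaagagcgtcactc
lncRNA:CR31840, chr2L:14023986-14024186: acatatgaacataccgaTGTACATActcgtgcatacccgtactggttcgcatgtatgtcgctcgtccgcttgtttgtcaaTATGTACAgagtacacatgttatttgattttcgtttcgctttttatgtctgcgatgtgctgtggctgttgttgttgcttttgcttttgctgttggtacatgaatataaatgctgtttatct
lncRNA:CR44917, chr2L:21867362-21867562: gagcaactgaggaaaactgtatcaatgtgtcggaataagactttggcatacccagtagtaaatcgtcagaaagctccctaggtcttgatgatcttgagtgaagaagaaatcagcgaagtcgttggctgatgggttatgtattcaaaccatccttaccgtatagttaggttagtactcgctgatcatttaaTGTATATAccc
lncRNA:flam, chrX:21631567-21631767: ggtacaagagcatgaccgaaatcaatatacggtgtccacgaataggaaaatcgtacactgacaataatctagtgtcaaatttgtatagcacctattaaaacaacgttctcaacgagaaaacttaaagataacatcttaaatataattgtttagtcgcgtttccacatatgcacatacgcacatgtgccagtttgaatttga
lncRNA:enrr, chrX:523371-523571: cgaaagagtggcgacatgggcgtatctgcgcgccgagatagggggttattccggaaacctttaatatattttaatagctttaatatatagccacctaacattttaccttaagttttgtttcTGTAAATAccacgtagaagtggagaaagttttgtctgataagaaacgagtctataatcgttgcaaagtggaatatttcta
lncRNA:CR44149, chr2L:9568642-9568842: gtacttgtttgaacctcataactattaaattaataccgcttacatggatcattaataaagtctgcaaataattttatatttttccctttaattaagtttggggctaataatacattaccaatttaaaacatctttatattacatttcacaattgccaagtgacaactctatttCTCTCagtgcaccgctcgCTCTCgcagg

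A peak at the promoter was less frequent among lncRNA genes than among protein-coding genes. The share was 5.60% of the lncRNA genes (109 of 1945, Wilson 95% interval 4.67 to 6.72%) and 18.7% of the protein-coding genes (2608 of 13968, 18.0 to 19.3%). All intervals given here cover counting error over genes or peaks only. The share was 6.56% of the 503 antisense RNA genes (symbols beginning asRNA:) and 15.4% of all 18277 annotated genes. Among the small structured RNAs it was 4.28% of 257 snoRNA genes, which guide RNA modification, 4.41% of 295 tRNA genes and 18.8% of 32 snRNA genes of the splicing machinery, and it was 2.31% of 260 microRNA genes by symbol. These shares rest on the same contrast as the choice of members and describe the list.

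Counting lone and shared genes together, an lncRNA gene had a peak more often the nearer it was annotated to a protein-coding start. Where a protein-coding start lay within 500 bp of the lncRNA start, 26 of 261 lncRNA genes (9.96%, 6.89 to 14.2%) had a peak. From there to 1000 bp it was 12 of 174 (6.90%, 3.99 to 11.7%), from there to 5000 bp 42 of 744 (5.65%, 4.20 to 7.54%), and beyond 5000 bp 29 of 766 (3.79%, 2.65 to 5.38%). The intervals of neighbouring steps overlapped, and those of the first and the last did not. Lone genes numbered 0 of the 261, 5 of the 174, 42 of the 744 and 29 of the 766. The rule for lone genes itself keeps most genes near a protein-coding start out of that class. The steps up to 1000 bp therefore cannot show an order for lone genes. Beyond 1000 bp every gene with a peak was lone. All 26 genes with a peak in the first step were shared. Protein-coding genes did not follow such an order by distance to an lncRNA start, with 18.9%, 18.8%, 14.6% and 19.1% over the same steps. Among lncRNA genes that overlapped a protein-coding gene on the opposite strand only, 29 of 355 (8.17%, 5.75 to 11.5%) had a peak. Of those that overlapped none it was 68 of 1375 (4.95%, 3.92 to 6.22%), and these intervals overlapped. With overlap on the same strand only it was 11 of 197 (5.58%), and on both strands 1 of 18. By exon number the share was 4.99% of 1283 genes with 1 exon, 6.01% of 516 with 2 and 9.59% of 146 with 3 or more. The intervals of the first and the last overlapped narrowly, 3.93 to 6.32% and 5.80 to 15.5%. Gene length hardly differed, with a median of 654 bp for the 109 genes and 663 bp for the 1836 lncRNA genes without a promoter peak.

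Around their own starts the lone summits were spread over the whole window. The median distance between summit and lncRNA start was 242 bp, and 12 of the 76 (15.8%, 9.27 to 25.6%) lay within 100 bp. The summits at protein-coding starts alone had a median distance of 104 bp, and 944 of 1943 (48.6%, 46.4 to 50.8%) lay within 100 bp. The 2 sets were not measured alike. The lone summits were counted from the starts of their own gene, the others from the nearest start of any protein-coding gene. A choice among more starts gives shorter distances by construction. Of the lone summits 41 of 76 (53.9%, 42.8 to 64.7%) lay upstream of the lncRNA start, against 1651 of 1943 (85.0%, 83.3 to 86.5%) at protein-coding starts. In steps of 100 bp the lone summits were most numerous 300 to 200 bp upstream and 400 to 500 bp downstream, with 13 genes each. They were fewest 500 to 400 bp upstream and 200 to 300 bp downstream, with 2 genes each, and 4 lay in the first 100 bp downstream. The 500 bp window is longer than some of the genes, so a downstream summit can lie past the gene's end, as at lncRNA:CR44676.

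The shared summits lay mostly upstream of the protein-coding start. From the lncRNA start they had a median distance of 210 bp, with 18 of 33 upstream (54.5%) and 6 of 33 within 100 bp. The same 33 summits measured from the nearest protein-coding start had a median distance of 148 bp, with 29 of 33 upstream (87.9%, 72.7 to 95.2%) and 9 of 33 within 100 bp. The upstream share was thus near that of summits at protein-coding starts alone when counted from the protein-coding start, and near that of the lone summits when counted from the lncRNA start. The summit was nearer to the protein-coding start in 18 of the 33 genes (54.5%, 38.0 to 70.2%), and the intervals of the shares within 100 bp overlapped (15.1 to 44.2% from the protein-coding start and 8.61 to 34.4% from the lncRNA start).

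**Figure D1:**
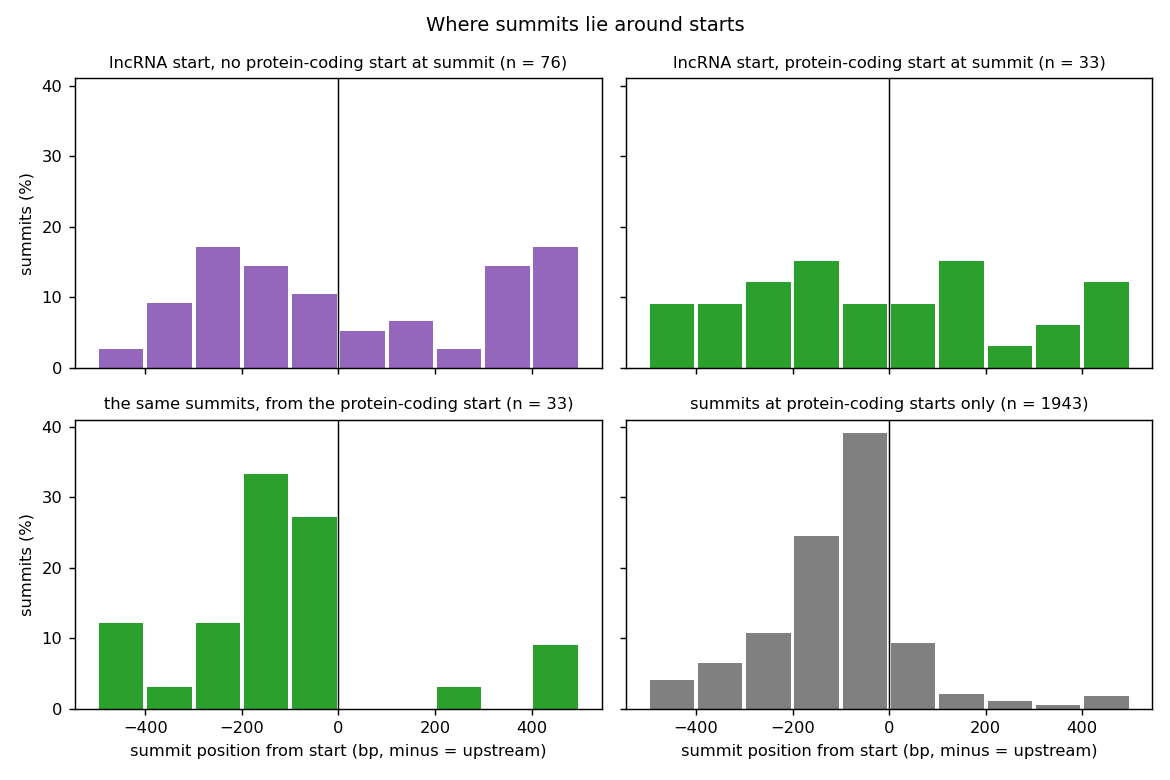
Position of promoter summits relative to a start (bp, minus is upstream), as percent of summits in steps of 100 bp. The lone and shared panels hold the strongest summit of each lncRNA gene. The bottom right panel holds every summit at protein-coding starts only, counted from the nearest of those starts. The 76 lone summits (top left) and the 33 shared summits counted from the lncRNA start (top right) are spread over the window, whereas the same 33 counted from the protein-coding start (bottom left) and the 1943 summits at protein-coding starts only (bottom right) gather just upstream.

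Going outward from the start, the frequency of the nearest summit fell less steeply for lncRNA genes. Of the 1510 lncRNA genes over 1000 bp from any protein-coding start, 2.45% (1.78 to 3.36%) had their nearest summit within 250 bp and 2.25% at 251 to 500 bp. Farther out the share was 1.39% at 501 to 750 bp and at 751 to 1000 bp, 1.66% at 1001 to 1250 bp, 1.52% at 1251 to 1500 bp, 1.06% at 1501 to 1750 bp and 0.795% at 1751 to 2000 bp. The 435 lncRNA genes within 1000 bp of a protein-coding start had 5.29% within 250 bp and 3.45% at 251 to 500 bp. Protein-coding genes had 14.9% within 250 bp, 3.75% at 251 to 500 bp and 1.53% at 501 to 750 bp. The step from the first band to the third was therefore large for protein-coding genes and small for lncRNA genes far from them.

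**Figure D2:**
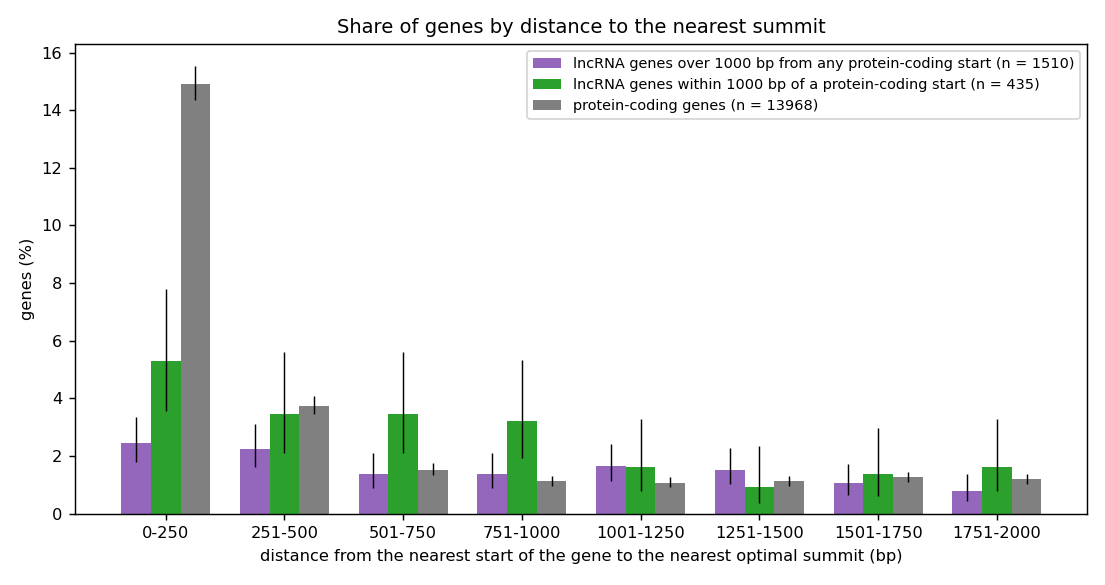
Percent of genes whose nearest peak summit lies in each 250 bp band from the nearest of their starts, with Wilson 95% intervals. Protein-coding genes (grey) stand at 14.9% in the first band and at 1.53% in the third, whereas lncRNA genes over 1000 bp from a protein-coding start (violet) stand at 2.45% and 1.39%.

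The peak signal is the authors' own value, with a scale that is not stated, and it ranks peaks within 1 list only. The median over genes was 150 for the lone genes (84.4 to 1040) and 171 for the shared genes (80.7 to 1393). Counted by summit the medians were 152 for the 81 lone and 142 for the 37 shared summits, against 142 for summits at protein-coding starts only, 126 for summits at neither kind of start and 134 for all 3970. Both kinds of lncRNA summit thus had signals in the same range as those at protein-coding genes.

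Most lncRNA summits were also among the strongest of each replicate's own list. A match was a summit no more than 100 bp away in the 3970 strongest of a replicate's 30000 regions. By this measure 64 of the 81 lone summits (79.0%, 68.9 to 86.5%) were found in both replicates, and so were 26 of the 37 shared summits (70.3%, 54.2 to 82.5%). The share was 71.4% at protein-coding starts only, 65.7% at neither kind of start and 68.8% of all 3970. Counted by gene, 61 of 76 lone genes were in both, 9 were found only for replicate 2 and 6 only for replicate 3. Of the 33 shared genes 23 were in both, 8 were found only for replicate 2 and 1 only for replicate 3, and 1, CR43256 beside gus, had no match. The reproducible list was made from both replicates together, so this is a description of the members and not an independent check.

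**Figure D3:**
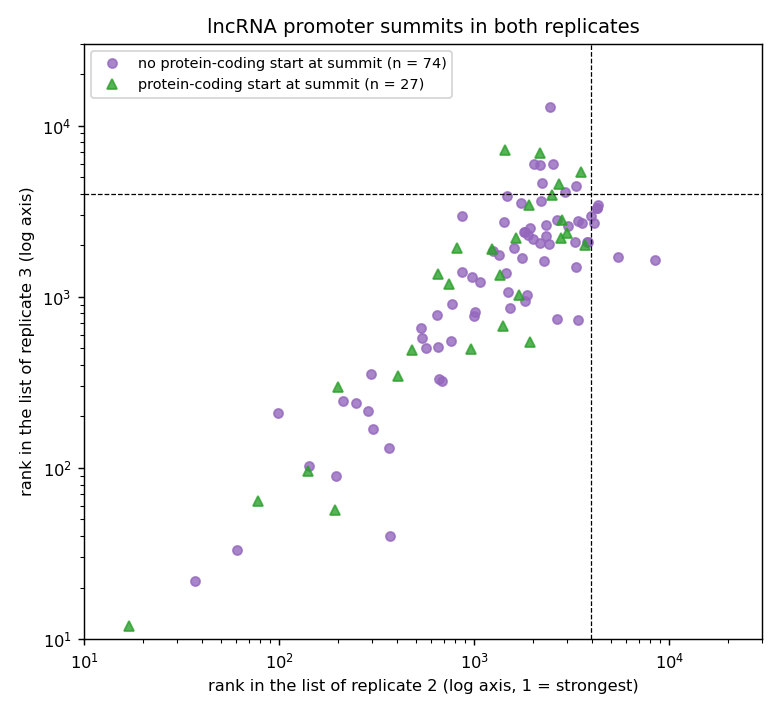
Rank of the strongest promoter summit of each lncRNA gene in the lists of replicate 2 and replicate 3 (log axes, 1 is the strongest), for genes with a match within 100 bp anywhere in both lists. Dashed lines mark rank 3970, and most lone (violet circles) and shared (green triangles) genes lie below both.

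The strongest lone summit was at lncRNA:CR44619 (FBgn0265830, X:12751867-12754571, forward strand). Its summit at X:12752357 had a signal of 1040 in the list made from both replicates (pooled), 585 for replicate 2 and 458 for replicate 3, and ranked 30 of all peaks. It lay 490 bp inside the gene, close to the edge of the window, and 6040 bp from the nearest protein-coding start, of CG4004. The summit was also just past the annotated end of lncRNA:Vinr (X:12749894-12752350, forward strand), an lncRNA known from antiviral immunity. A second summit at X:12751448, with a signal of 802, lay inside Vinr and upstream of the start of CR44619, but 1554 bp from the start of Vinr, so Vinr itself was not among the 109 genes. The 2 summits thus lie close together, each inside a different gene model, and neither lies where the models overlap.

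The next lone genes had summits closer to their starts. lncRNA:CR31044 (FBgn0051044, 3R:29214562-29219667, forward strand, 3 exons) had its summit 112 bp upstream of the start, with 840 pooled, 454 for replicate 2 and 392 for replicate 3. The nearest protein-coding start, of the translation elongation factor gene eEF1gamma, was 5722 bp away. lncRNA:CR31840 (FBgn0051840, 2L:14023722-14024099, reverse strand, 1 exon) had its summit 13 bp inside the transcript, with 583 pooled, 208 for replicate 2 and 378 for replicate 3. It was the least even of the 3 between replicates, and the only one of the 15 strongest lone summits with more than 1 Pum element.

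Several strong lone peaks were at lncRNA genes inside protein-coding genes but away from their starts. lncRNA:CR46102 lies in LpR2, which encodes a lipophorin receptor, on the opposite strand; its summit had 553 pooled, 309 for replicate 2 and 251 for replicate 3. lncRNA:CR45997 lies in mbl, the splicing regulator muscleblind, on the same strand, with 539 pooled, 278 for replicate 2 and 265 for replicate 3. lncRNA:CR44867 lies in beat-Ib, of a family of axon guidance genes, with 437 pooled, 209 for replicate 2 and 231 for replicate 3. In all, 22 of the 76 lone genes (28.9%) were inside a protein-coding gene and 52 (68.4%) overlapped none. Among the 1836 lncRNA genes without a promoter peak 24.1% were inside a protein-coding gene and 71.2% overlapped none, so the lone genes were close to the rest.

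Between genes, lncRNA:CR44810 (2R, 4 exons) had a summit 4519 bp from the start of slbo, a C/EBP transcription factor, with 537 pooled, 355 for replicate 2 and 188 for replicate 3. lncRNA:CR43626 had 441 in the pooled list, and lncRNA:CR44363, lncRNA:CR44676 and lncRNA:CR44917 had 440, 414 and 380. The last of these was far from any protein-coding start, the nearest being 30827 bp away. The other 3 of these 4 had theirs 2261, 8448 and 8381 bp away.

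Other lone summits only just missed a protein-coding start. lncRNA:CR45668, with 422 pooled, 232 for replicate 2 and 185 for replicate 3, had its summit 645 bp upstream of Act5C, a cytoplasmic actin gene. lncRNA:CR43644, with 304 pooled, 150 for replicate 2 and 158 for replicate 3, had its summit 501 bp upstream of E(spl)m3-HLH, a Notch target gene, and so fell outside the limit by the smallest possible step. The set of 15 ends with lncRNA:CR44380 at 297 and lncRNA:CR44366 at 296. Of the 76 lone genes 7 had a protein-coding start within 1000 bp of the summit, 41 had their nearest farther off but within 5000 bp, and 28 beyond that.

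The lone genes with names of their own had weak to middling peaks. lncRNA:flam (X:21631891-21790731, forward strand), the flamenco piRNA cluster that silences transposons in the somatic cells of the ovary, had its summit 224 bp upstream of the start, with 133 pooled, 94.7 for replicate 2 and 39.4 for replicate 3. lncRNA:marge had its summit 348 bp upstream, with 138 pooled, 82.6 for replicate 2 and 53.7 for replicate 3. lncRNA:TS2 had its summit 56 bp upstream, with 110 pooled, 51.9 for replicate 2 and 58.0 for replicate 3. All 3 were among the strongest 3970 of both replicates and below the lone median of 150.

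**Figure D4:**
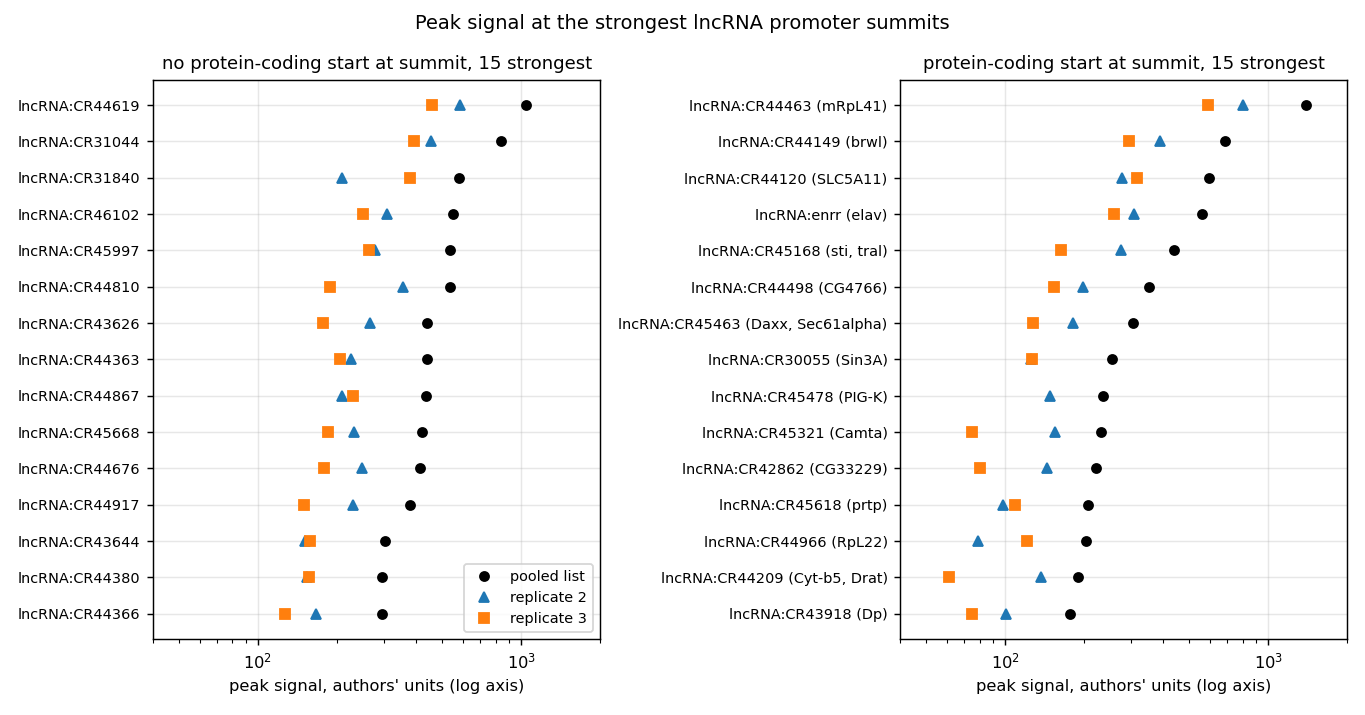
Peak signal (authors' units, log axis) of the 15 strongest lone genes (left) and the 15 strongest shared genes with the protein-coding genes at the summit in brackets (right), in the pooled list (black circles), replicate 2 (blue triangles) and replicate 3 (orange squares). Each pooled value is above those of the replicates, and lncRNA:CR45478 has no match in replicate 3.

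Among the shared genes, orientation was read from the lncRNA start and the protein-coding start nearest the summit. These starts were divergent in 18 of 33, in overlapping antisense in 8 and on the same strand in 7. Divergent starts did not always mean separate genes. CR30055, CR43130 and CR43256 had divergent starts but overlapped Sin3A, aqz and gus on the opposite strand. At 6 of the 33 summits there were 2 protein-coding genes. The strongest, lncRNA:CR44463 (2R, 1 exon), had 1393 pooled, 803 for replicate 2 and 592 for replicate 3. Its summit lay 427 bp downstream of the lncRNA start, past the end of this 201 bp gene. It was 151 bp upstream of mRpL41, which encodes a protein of the mitochondrial ribosome. lncRNA:CR44149 had 686 pooled, 388 for replicate 2 and 297 for replicate 3, with its summit 43 bp inside the lncRNA and 148 bp upstream of the divergent gene brwl. lncRNA:CR44120 had 595 pooled, 278 for replicate 2 and 318 for replicate 3. Its summit lay 376 bp downstream of the lncRNA start, past the end of this 282 bp gene, and 140 bp upstream of SLC5A11, a solute transporter gene. In 2 of these 3 the summit was nearer to the protein-coding gene.

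lncRNA:enrr (X:513106-523226, reverse strand) was the one named gene of the shared class. Its annotated start is the same base as a start of elav, the neuronal RNA-binding protein gene, so their distance is 0 bp and the summit 245 bp upstream belongs to both equally. It had 560 pooled, 309 for replicate 2 and 260 for replicate 3. lncRNA:CR45212 likewise shared its start with IKKbeta, a kinase of immune signalling, at 0 bp, and its summit lay 119 bp from both. For these 2 genes the position of the peak cannot tell the transcripts apart. lncRNA:CR42862 also shared a start with CG33229, but its summit lay 460 bp from the nearest lncRNA start and 206 bp from another start of CG33229.

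The rest of the 15 strongest shared genes stood beside genes of varied function. lncRNA:CR45168, with 437 pooled, 276 for replicate 2 and 163 for replicate 3, shared its summit with sti, the citron kinase of cytokinesis, and tral, a component of RNA granules. lncRNA:CR45463, with 308, was at Daxx, a histone chaperone gene, and Sec61alpha, the channel of the endoplasmic reticulum. lncRNA:CR30055, with 256 pooled, 125 for replicate 2 and 127 for replicate 3, lies within Sin3A, a transcriptional corepressor gene. lncRNA:CR44966 was at the ribosomal protein gene RpL22, with 203. The others were CR44498 at CG4766 with 352, CR45478 at PIG-K with 236, CR45321 at Camta with 232, CR42862 at CG33229 with 222, CR45618 at prtp with 207, CR44209 at Cyt-b5 and Drat with 190, and CR43918 at Dp with 176. Of these 15 genes only CR45478 had no match in a replicate, having 149 in replicate 2 and none in replicate 3.

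The list of 21 lncRNAs with a described function held 17 annotated under the prefix, and 2 of those had a promoter peak, enrr and flam. The share over all lncRNA genes was 5.60%, and a list this short cannot be set apart from it. Hsromega, the heat shock lncRNA of the nuclear omega speckles, had its nearest reproducible summit 1119 bp from a start, with 91.8. The dosage compensation RNA roX2 had its nearest reproducible summit 1443 bp away, with 137, and roX1 had its nearest 5959 bp away, with 237. The weaker pooled list held a region at the start of roX1 with 75.6, under the lowest reproducible value of 80.4, and one at roX2 with 31.2. Such weaker regions were also at starts of Hsromega (57.2), yar (51.3), iab8 (34.6) and sphinx (33.9). Of the 8 dosage compensation genes 1, msl-1, had a promoter peak, with 114, where 15.4% of all annotated genes had one. In the Bithorax complex 0 of 6 annotated genes had one, which limits no share firmly in so short a list, although 2 reproducible summits lay inside bxd and 3 inside iab8.

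The 15 characterised lncRNAs without a promoter peak differed widely in how near a reproducible summit came. Besides those above, the nearest was 1536 bp from a start for acal (114), 2388 bp for bxd (147), 3066 bp for mimi (136), 3870 bp for iab8 (94.9) and 4598 bp for CRG (136). It was 6152 bp for sphinx (165), 12365 bp for let7C (158), 13082 bp for cherub (135), 14798 bp for noe (121), 15153 bp for iab4 (108) and 131378 bp for yar (621). The signal of that summit is given in brackets.

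By chromosome arm the share of lncRNA genes with a peak was 9.83% on 2R (29 of 295, 6.93 to 13.8%), 7.08% on X (17 of 240), 5.53% on 2L (29 of 524), 4.46% on 3R (19 of 426) and 3.37% on 3L (15 of 445, 2.05 to 5.49%). The intervals of 2R and 3L did not overlap. Chromosome 4 had 0 of 14. The shares of protein-coding genes were closer together on these arms, at 17.5% on 2R, 16.7% on X, 18.0% on 2L, 21.5% on 3R and 19.1% on 3L. Lone genes made up 18 of the 29 on 2R and 12 of the 15 on 3L.

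Both promoter motifs best known from broadly used fly promoters were missing at the lncRNA summits. The DRE, TATCGATA, was in 0 of 81 lone windows, which, at a limit of 3 counts, allows up to 3.70%, and in 0 of 37 shared windows, which at the same limit allows up to 8.11%. The Wilson upper limits were 4.53% and 9.41%. It was in 173 of 1943 windows (8.90%, 7.72 to 10.3%) at protein-coding starts only and in 0.419% at neither kind of start. The Wilson limit of the shared windows takes in 8.90%, so a difference from protein-coding starts was not detectable for them. Ohler motif 1, GGTCACACT, was in 0 of 118 lncRNA windows, which at the limit of 3 counts allows up to 2.54%, with a Wilson upper limit of 3.15%. It was in 3.76% (3.00 to 4.70%) at protein-coding starts only, and these intervals overlapped. Taken apart, the lone and shared windows had Wilson upper limits of 4.53% and 9.41%. Both take in 3.76%, so a difference was not detectable for either class. Among windows of the same length at gene starts, the DRE was in 0.771% of all 1945 lncRNA genes and in 7.83% of all 13968 protein-coding genes. Ohler motif 1 was in 0.360% and 5.28% of these, and in 0.210% of summits at neither kind of start. Both motifs were thus rare at lncRNA starts in general. The counts of 0 cannot be set apart from those low shares, which the Wilson limits take in. All motifs were searched on both strands, and a missing match says only that these letters are not in the window.

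The core of the DRE is also the letters bound by the insulator protein BEAF-32, CGATA, which lie within TATCGATA. CGATA was in 13 of 81 lone windows (16.0%, 9.63 to 25.5%) and in 13 of 37 shared windows (35.1%, 21.8 to 51.2%). The share was 42.0% at protein-coding starts only, 21.0% at neither kind of start and 20.1% at the starts of all lncRNA genes. The lone share was thus close to that of summits at neither kind of start, and the shared one lay between the lone share and that at protein-coding starts, with an interval that takes in 42.0%.

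The Pum element TGTANATA was in 10 of 81 lone windows (12.3%, 6.85 to 21.3%) and in 5 of 37 shared windows (13.5%, 5.91 to 28.0%). It was in 8.08% at protein-coding starts only, 10.3% at neither kind of start and 9.27% of all 3970, all inside those intervals. At the starts of all lncRNA genes it was in 5.91%, and at those of all protein-coding genes in 5.80%. The runs printed above show 2 elements at CR31840, one on each strand, and 1 each at CR44917 and enrr. lncRNA:CR44365, beside CG42808, held 3. A match in DNA is a description of the letters and not of a site.

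The remaining motifs did not set the lncRNA windows apart. GAGA (GAGAG) was in 21.0% of lone and 18.9% of shared windows, against 19.8% at protein-coding starts only and 26.0% at neither. The TATA letters TATAAA were in 34.6% and 37.8% of them, against 31.2% and 31.5%, and the Initiator letters TCAGT in 39.5% and 32.4%, against 32.0% and 38.0%. The Zelda letters CAGGTA were in 1 of 81 lone windows (1.23%) and in 0 of 37 shared windows, which allows up to 8.11%, against 3.91% and 4.45%. The median GC content was 34.3% for lone and 36.8% for shared windows, against 36.8% at protein-coding starts only and 36.3% for all summits.

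**Figure D5:**
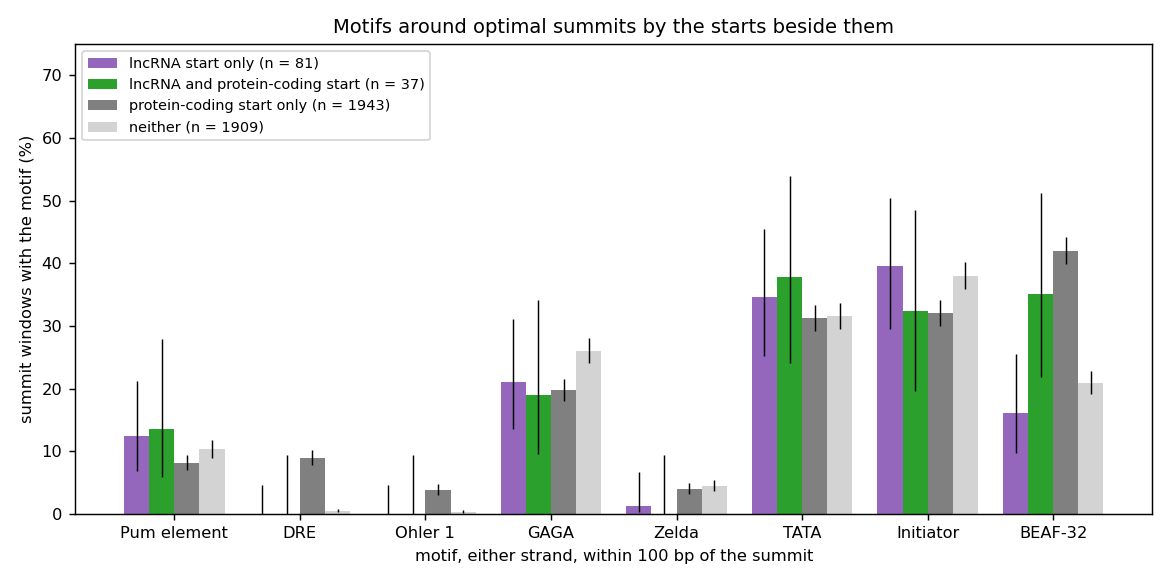
Percent of summit windows (100 bp on either side) holding each motif on either strand, with Wilson 95% intervals, for summits at an lncRNA start only, at both kinds of start, at a protein-coding start only and at neither. The DRE and Ohler motif 1 bars are at 0 for both lncRNA classes, and BEAF-32 stands at 16.0% for the lone and 35.1% for the shared summits.

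The Pum element was also counted in the annotated exons of the lncRNAs. The choice of members did not use this count, but the exons of members can hold the summit windows that made the choice. At lncRNA:CR31840, for example, both elements of the summit window lie in its 1 exon. The count is therefore not independent of the choice. On the sense strand, the one present in the RNA, the element occurred at 0.303 per kb in the 109 genes with a peak and at 0.171 per kb in the 1836 without. On the antisense strand, which the RNA does not carry, the values were 0.327 and 0.189 per kb. The difference was thus as large on the strand that is not in the RNA. The exons had a GC content of 42.6% and 43.6%, and 21 of 109 genes (19.3%) against 215 of 1836 (11.7%) had at least 1 sense element. Leaving out flam, with 17427 bp of exons, an alternative chosen after seeing the data, gave 0.288 per kb sense and 0.334 per kb antisense.

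At the edges of the rule, the members farthest from a start were lncRNA:CR45277 at 498 bp, with 165, and lncRNA:CR46322 at 495 bp, with 118. Just outside were lncRNA:CR45564 at 502 bp, with 131, and lncRNA:CR44828 at 511 bp, with 107. The weakest members were lncRNA:CR45010, with 80.7, and lncRNA:CR13130, with 84.3, and just below the reproducible list were lncRNA:CR46035, with 80.3, and lncRNA:CR46085, with 80.1. Of the 1836 lncRNA genes without a promoter peak, 403 had a weaker region of the pooled list at a start and 1433 had none. Of those 403, 321 had no protein-coding start at that summit and 82 had one.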

How the data were processed

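The authors deposited a peak list for each replicate, a pooled list and a list of reproducible peaks. The dm6 lists were used and the dm3 lists were not. Each region's signal and the −log10 of its q-value were deposited by the authors. No source used here gives the peak caller, its version or the threshold for reproducibility. Per the deposited notes, the lists derive from the alignments and 1 further file of unstated role. Read depth is unknown. Whether the 2 biological replicates came from separate collections is not stated beyond their label.

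A summit within 500 bp of an Ensembl release 115 (BDGP6.54) transcript start made a promoter peak; coordinates are 1-based. A gene's class followed its strongest such summit. Members and lists were chosen with earlier results of these data known. Genes named were the 15 strongest of each class, members with names of their own, the genes of 2 lists (characterised lncRNAs, dosage compensation), those nearest each threshold and the partners of shared or named genes; a few others were named after their values were seen. The look-up of summits near starts was run on summits planted within 500 bp of lncRNA starts on 2L, 3L, 3R and X. It recovered 100 of 100, which checks the code and not the counts reported here. Python 3.11.15, numpy 2.4.6, scipy 1.17.1 and matplotlib 3.10.9 were used.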

Additional observations from a re-analysis of the deposited data

How the results depend on the processing

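Of 49 alternatives, 33 left the value within its limits and 16 moved it. For counts of genes the limit was a factor of 1.5, which is wide. Within it fell 85 genes with summits matched in both replicates, against 109. So did 108 lone genes with a 1000 bp window, against 76. The number of genes was 60 with a 250 bp window, 180 with 1000 bp and 61 with the stronger 50% of peaks; the lone genes numbered 44 with 250 bp and 43 with the stronger 50%. Leaving out either replicate gave 110 and 112 genes, of which 91 and 102 were among the 109, and 78 and 75 lone genes. The list of a single replicate holds 30000 regions and is not a reproducible list. A count from it depends on how many regions are kept, so like counts are no check of the 109. The lone median signal was 225 with the stronger 50% and 62.4 to 83.9 in single replicates. The shared median was 131 with 1000 bp, 234 with the stronger 50% and 74.9 to 86.2 in single replicates. Keeping the stronger 50% raises a median by construction. Signals of single replicates come from other lists and cannot be set against pooled ones. The cause of the shift with 1000 bp was not tested. The share of the 118 summits found in both replicates, 76.3%, was 66.9% with matches within 50 bp, 83.1% within 250 bp and 92.4% over all regions. The Pum element was in 12.7% of the 118 windows and in 6.78% with 50 bp on either side. The DRE was in 1.69% with 200 bp on either side. No paired analysis was possible because both libraries form 1 group. With 2 replicates and unknown depth, a gene without a peak may lie under the detection limit.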
